A study of Mus musculus with 4 samples.

Results

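Fibroblast growth factors, hepatocyte growth factor and 3 of the FGF receptors were compared between stromal cells of proximal and distal prostatic ducts of adult C57BL/6 mice. The 10 genes, chosen by name as stromal mitogens of prostate epithelium and their receptors, are the ligands Fgf1, Fgf2, Fgf7, Fgf9, Fgf10, Fgf18 and Hgf and the receptors Fgfr1, Fgfr2 and Fgfr3. They are 10 of 25743 genes named in the files. Proximal ducts adjoin the urethra and distal ducts form the tips of the lobes. All cells were sorted by flow cytometry for Sca-1 and against lineage markers, CD24 and CD49f. Such a sort is meant to select mesenchymal cells and deplete epithelium. There were 2 proximal and 2 distal libraries, numbered 2 and 3 in each region. No treatment or genotype beyond the strain is given in the labels, nor whether the libraries came from separate animals or pools, so p-values reflect just how these libraries vary, and that variation may be technical.

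FGFs are secreted proteins that bind heparan sulfate and tyrosine kinase receptors. Alternative use of a pair of exons in the third immunoglobulin (Ig) loop gives each of FGFR1 to FGFR3 a IIIb form, typical of epithelia, and a IIIc form, typical of mesenchyme. FGF7 and FGF10 are made by mesenchyme and act on the epithelial FGFR2 IIIb form, and Fgf10 is required for prostate buds to form in the mouse embryo. HGF, also a mesenchymal product, acts on the receptor MET of epithelial cells.

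Levels are in FPKM, which corrects fragments for the length of a transcript and for the mapped total of a library, and were added up per gene. Between 10148 and 11456 genes reached 1 FPKM per library. Absolute depth is unknown, and the authors' deposited FPKM bounds lay a median of 13.8% to 14.8% of the value to either side for transcripts of 1 to 10 FPKM. The 10 fibroblast markers examined were above 5 FPKM in at least 1 library, with a summed level of 6329 and 6482 FPKM in the proximal and 6107 and 5254 FPKM in the distal libraries. They were Pdgfra, Dcn, Col1a1, Col1a2, Col3a1, Lum, Pi16, Ly6a, Thy1 and Vim, with Dcn highest. Ly6a encodes Sca-1, for which the cells were sorted, so its level is not independent of the sort. Endothelial, leukocyte and Schwann cell marker lists summed to at most 10.9 FPKM in every library, led by Tek, Cd74 and Mbp, and the T cell gene Cd3e was at 0 in all 4. Epithelial markers were present despite the sort. Their 14 genes summed to 65.6 FPKM in proximal 2 and 464 FPKM in proximal 3, against 42.3 FPKM in distal 2 and 104 FPKM in distal 3. Those that reached 5 FPKM were Epcam, Cdh1, Krt5, Krt8, Krt14, Krt18, Krt19, Cldn4, Cldn7 and Elf3. Krt19, the highest, stood at 22.05 and 156 FPKM in the proximal and 7.93 and 15.2 FPKM in the distal libraries. Smooth muscle markers summed to 355 and 191.5 FPKM in proximal and 390 and 270.2 FPKM in distal libraries, with Acta2, Myh11, Tagln, Actg2, Des and Smtn above 5 FPKM. Pericyte markers, with Cspg4 and Mcam above 5 FPKM, summed to 16.6 and 31.8 FPKM in proximal and 23.3 and 35.2 FPKM in distal libraries.

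An exon of Fgfr2 is shown here because the IIIb and IIIc forms were inferred below from the ends and lengths of the listed transcripts. No value was measured for the exon itself. The IIIb exon, which gives the epithelial form that FGF7 and FGF10 bind, lies at chr7:130199758-130199905 (mm10, minus strand). It has 148 bases, is a coding exon and was found in 10 annotated GENCODE transcripts. It is written 5′ to 3′ on the strand of the gene.
Fgfr2 IIIb exon: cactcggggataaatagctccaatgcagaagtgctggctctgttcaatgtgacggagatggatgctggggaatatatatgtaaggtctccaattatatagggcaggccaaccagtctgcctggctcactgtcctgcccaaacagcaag

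Fgf7 and Fgfr2 had the largest differences among the 10 genes, and both were higher in proximal stroma in every library. Fgf7 (keratinocyte growth factor, chromosome 2, 126034658 to 126091185, plus strand) stood at 29.2 FPKM in proximal 2 and 50.2 FPKM in proximal 3. In distal 2 and distal 3 it stood at 10.8 and 11.5 FPKM. The 2 distal libraries were nearly equal, and the lower proximal library stood well above both. All of this came from a single listed transcript of 2672 bases. Its deposited bounds reached down to 27.4 FPKM in the proximal libraries and up to 12.4 FPKM in the distal libraries. Proximal stroma averaged 39.7 ± 14.9 FPKM of Fgf7 and distal stroma 11.2 ± 0.509 FPKM (SD, n = 2 libraries each), and the ratio of these means was 3.56. On the log2(FPKM + 1) scale, which understates the change of low genes, the difference was 1.69 ± 0.40 (SE), with a 95% interval of 0.67 to 2.72. It was 1.36 between the libraries numbered 2 and 2.03 between those numbered 3. Fam227b, a gene that spans Fgf7, was listed at 0 in all 4 libraries.

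Fgfr2 (chromosome 7, 130162451 to 130266263, minus strand) was measured at 13.3 FPKM in proximal 2 and 19.9 FPKM in proximal 3. Its level was 4.20 and 5.91 FPKM in distal 2 and distal 3. Neither proximal library came near the distal range. Proximal stroma averaged 16.6 ± 4.68 FPKM of Fgfr2 and distal stroma 5.06 ± 1.21 FPKM (SD, n = 2 libraries each), and the ratio of these means was 3.28. The log2 difference was 1.53 ± 0.43 (SE; 95% interval 0.45 to 2.61), and within the numbers it was 1.46 and 1.60.

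With region as the only term, neither gene passed the test across all genes. With limma over 11271 genes and Benjamini-Hochberg adjustment, the adjusted p was 0.904 for Fgf7 (unadjusted p = 0.00762) and 0.99991 for Fgfr2 (unadjusted p = 0.0145). This test called 0% of genes higher and 0% lower in proximal stroma at an adjusted p under 0.05, with a smallest adjusted p of 0.198. At an unadjusted p under 0.05 it gave 254 genes (2.25%) with higher and 102 genes (0.905%) with lower proximal values. Of the 9 genes tested here, Fgf7 and Fgfr2 were the 2 under that unadjusted level. For a single gene, exact permutation of 2 and 2 libraries gives two-sided p-values no smaller than 0.333. The regions did not overlap for 21.6% of all genes, with the proximal libraries on top for 13.0% and underneath for 8.64%. Among the 9 tested genes these counts were 2 (Fgf7 and Fgfr2) and 1 (Fgfr1). In bulk samples, fewer cells of a type and less RNA per cell cannot be told apart.

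Epithelial markers were also compared between the regions. All 10 tested epithelial markers had positive log2 differences, against 60.4% of all genes, and 0 passed the test with region as the only term. Within each library number the marker sum was higher in the proximal library, as for Fgf7 and Fgfr2. It was 65.6 against 42.3 FPKM for number 2 and 464 against 104 FPKM for number 3. The sum, Fgf7 and Fgfr2 were each highest in proximal 3. In 1 pair of libraries, which differ in number, the marker sum had the opposite order to Fgf7 and Fgfr2. The sum was 65.6 FPKM in proximal 2 against 104 FPKM in distal 3. Fgf7 was 29.2 against 11.5 FPKM and Fgfr2 13.3 against 5.91 FPKM. Single markers were divided in this pair. Krt19 (22.05 against 15.2 FPKM), Cldn7 (3.59 against 3.55) and Elf3 (2.53 against 0.448) were higher in proximal 2. These 3 of the 10 tested markers had no overlap between regions, with proximal values on top, against 13.0% of all genes. For the other 7 the regions overlapped, and proximal 2 was below distal 3. Of the epithelial genes that define the IIIb splicing programme, Esrp1 did not exceed 0.526 FPKM and Esrp2 reached 1.39 FPKM in proximal 3 and at most 0.225 FPKM elsewhere. The dissociation stress genes (Fos, Fosb, Jun, Junb, Egr1, Atf3, Hspa1a, Hspa1b, Nr4a1 and Ier2) also had positive differences in 9 of 10 cases, with a median of 0.75 and 0 passing. The part of either list in the Fgf7 and Fgfr2 differences was not tested.

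**Figure D1:**
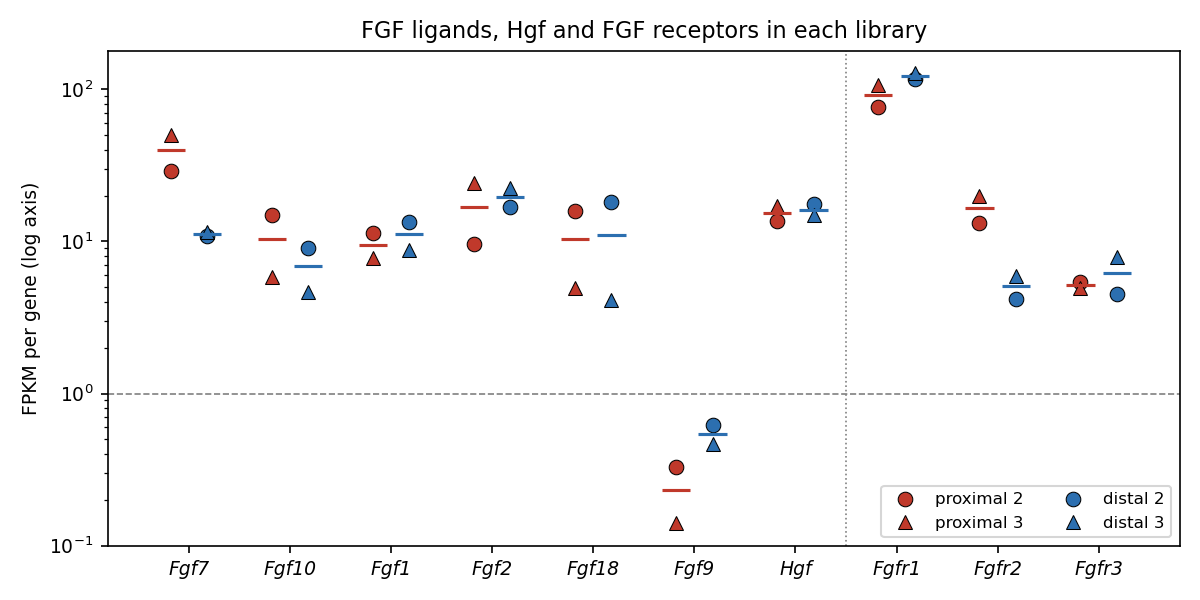
FPKM per gene (log axis) in each of the 4 libraries, with proximal values in red left of distal values in blue, circles for the libraries numbered 2, triangles for those numbered 3 and horizontal bars for the mean of each region. Fgf7 and Fgfr2 are the genes whose proximal libraries sit above both distal libraries, while Fgf9 lies below the dashed line at 1 FPKM throughout.

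The Fgfr2 transcripts of both forms were higher in the proximal libraries, with most of the level in the IIIc form. The deposited tables list 16 Fgfr2 transcripts by position and length. For each, every chain of annotated exon junctions with the same ends and length was searched, and 3 transcripts were above 0 in any library. A transcript of 4177 bases with the IIIc exon and the first Ig loop stood at 4.94 and 9.19 FPKM in proximal and 2.32 and 2.74 FPKM in distal libraries. The IIIc transcript without the first Ig loop, of 4847 bases, stood at 5.63 and 5.18 FPKM in proximal and 1.88 and 2.13 FPKM in distal libraries. The IIIb transcript, of 3913 bases and without the first Ig loop, had 2.72 FPKM in proximal 2 and 5.53 FPKM in proximal 3. In distal 2 it was listed at 0 and in distal 3 it stood at 1.03 FPKM. For each of the 3 transcripts, both proximal libraries exceeded both distal libraries.

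The IIIb form held 20.4% and 27.8% of the Fgfr2 level in proximal 2 and proximal 3, and 0% and 17.5% in distal 2 and distal 3. Cufflinks divides fragments among overlapping transcripts, so these shares are estimates, and a listed 0 need not mean absence. The IIIb level was highest in proximal 3, the library with the highest summed epithelial markers, and the part of epithelial RNA in it was not tested. With the IIIc transcripts alone, a choice made after seeing the data, the Fgfr2 difference was 1.27 on the log2 scale (adjusted p = 0.99991, limma).

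Fgfr1 (chromosome 8, 25513654 to 25575718, plus strand), a receptor of most FGFs in mesenchyme, was the most abundant of the 10 genes in every library. It reached 76.1 FPKM in proximal 2 and 107 FPKM in proximal 3, against 117 FPKM in distal 2 and 128 FPKM in distal 3. Both proximal values lay below both distal values, though proximal 3 and distal 2 were close. The log2 difference was -0.44 ± 0.33 (SE; 95% interval -1.26 to 0.39; adjusted p = 0.99991, limma), and it was -0.20 without proximal replicate 2 and -0.68 without proximal replicate 3. Of its 3 transcripts above 0, 2 contain the first Ig loop, an extracellular part that affects ligand affinity, and 1 lacks it. The transcript without it held 36.0% and 41.2% of the Fgfr1 level in proximal and 31.6% and 36.0% in distal libraries. The lengths of the 3 transcripts did not settle between the IIIb and IIIc exons, since chains of either class had the same length. A transcript of 5019 bases was at 16.1 and 18.9 FPKM in proximal 2 and distal 2 and listed at 0 in proximal 3 and distal 3.

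Fgfr3, a receptor known for restraining bone growth, stood at 5.38 and 4.93 FPKM in proximal and 4.49 and 7.92 FPKM in distal libraries. The regions overlapped (log2 difference -0.19 ± 0.45 SE; adjusted p = 0.99991, limma). Of 5 transcripts, 4 contained the IIIc exon, and the IIIb one was listed at 0 except for 0.903 FPKM in proximal 2. Fgfr4, a receptor without alternative third-loop forms, stood at 9.70 and 6.06 FPKM in proximal and 3.23 and 2.45 FPKM in distal libraries. Its regions did not overlap, with a log2 difference of 1.19 ± 0.45 (SE; adjusted p = 0.99991, limma).

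The makeup of the receptor pool can be read within each library, where scaling between libraries plays no part. Fgfr2 took 12.7% and 14.5% of the summed FPKM of Fgfr1 to Fgfr4 in proximal 2 and proximal 3. In distal 2 and distal 3 it took 3.26% and 4.10%. Fgfr1 took 72.85% and 77.5% in proximal and 90.75% and 88.7% in distal libraries. Fgfr1 was thus the main receptor transcript in all 4, with a smaller share in both proximal libraries.

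**Figure D2:**
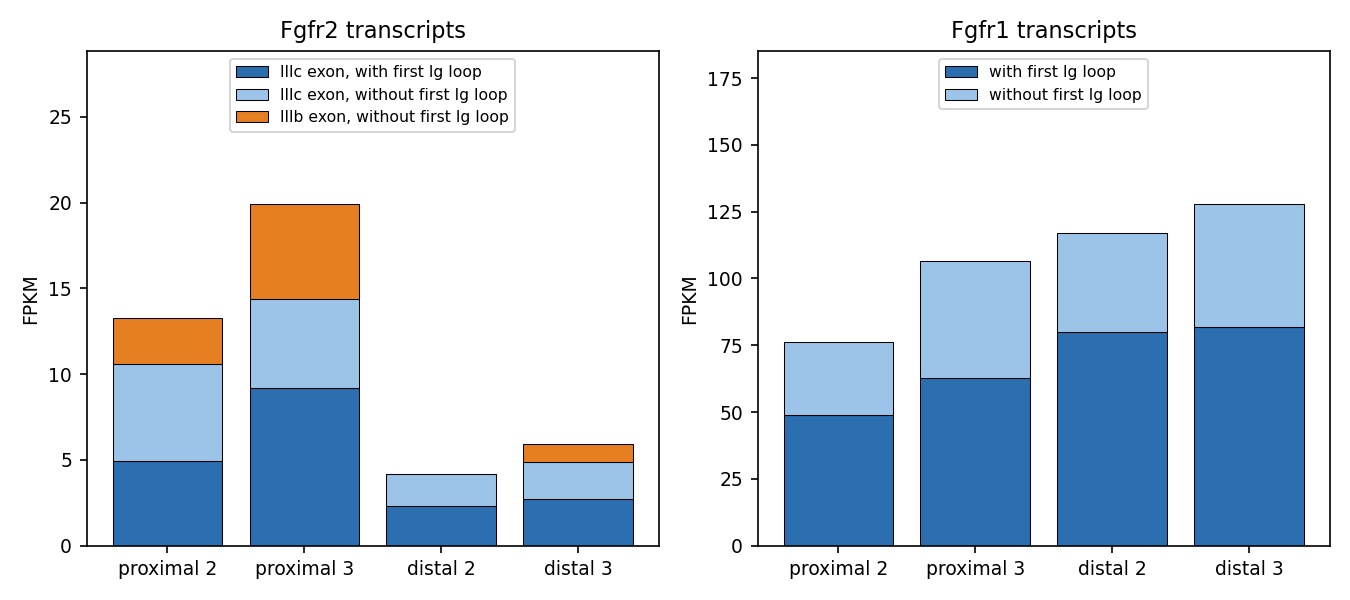
Stacked FPKM of the Fgfr2 (left panel) and Fgfr1 (right panel) transcripts in each library, grouped by presence of the first Ig loop and, for Fgfr2, by the exon of the third Ig loop. The Fgfr2 bars reach 13.3 and 19.9 FPKM in the proximal libraries and 4.20 and 5.91 FPKM in the distal libraries, and the IIIb part is listed at 0 in distal 2.

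Fgf10 (chromosome 13, 118669791 to 118792115, plus strand), the mesenchymal ligand closest to Fgf7 in function, overlapped between the regions. Fgf10 reached 15.0 FPKM in proximal 2 and 5.87 FPKM in proximal 3, against 9.04 FPKM in distal 2 and 4.66 FPKM in distal 3. Its proximal value was the higher one within each number, as for Fgf7, and the difference between the genes was not tested. The log2 difference was 0.48 ± 0.59 (SE; 95% interval -1.02 to 1.98; adjusted p = 0.99991, limma). Fgf7 exceeded Fgf10 in every library, by ratios of 1.94 and 8.56 in proximal and 1.19 and 2.47 in distal libraries.

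Fgf1, a ligand that binds all FGF receptor forms, stood at 11.3 and 7.74 FPKM in proximal and 13.5 and 8.74 FPKM in distal libraries. Fgf2 (basic FGF, a mitogen of fibroblasts and endothelium) stood at 9.61 and 24.3 FPKM in proximal and 16.9 and 22.4 FPKM in distal libraries. For both genes the regions overlapped, and the log2 differences were -0.20 ± 0.43 and -0.32 ± 0.53 (SE; adjusted p = 0.99991, limma, for each). The 95% intervals were -1.29 to 0.90 for Fgf1 and -1.65 to 1.01 for Fgf2, so both include 2-fold lower proximal levels. The Fgf2 level is less certain than the others. Its listed transcript has 695 bases, against 5973 bases for the longest annotated one, and it ends before the stretch that Fgf2 shares with the antisense gene Nudt6. The kit does not mark strand, so reads of that stretch cannot be assigned to either gene. Nudt6 stood at 8.42 and 11.99 FPKM in proximal and 11.2 and 12.3 FPKM in distal libraries.

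Fgf18, a ligand of FGFR3 in cartilage and lung, stood at 15.96 and 4.93 FPKM in proximal and 18.1 and 4.13 FPKM in distal libraries. Its difference followed the library number, not the region. The log2 difference between regions was 0.019 ± 0.84 (SE; 95% interval -2.10 to 2.14; adjusted p = 0.99991, limma), and that of number 3 minus number 2 was -1.70. Fgf1 and Fgf10 were likewise lower, and Fgf2 higher, in both libraries numbered 3, by -0.54, -1.02 and 0.82 on the log2 scale. For 70.6% of all genes tested the libraries of the 2 numbers did not overlap, so this split is common in these data. Fgf7, Fgfr1, Fgfr2, Fgfr3 and Hgf overlapped between the numbers.

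Fgf9, a ligand of IIIc receptors, was close to the limit of detection. It stood at 0.327 and 0.140 FPKM in proximal and 0.625 and 0.462 FPKM in distal libraries, and it was the only one of the 10 genes under the minimum for the test, 1 FPKM in at least 2 libraries. Both proximal values lay below both distal values. Their deposited bounds overlapped, however, reaching up to 0.439 FPKM in proximal and down to 0.342 FPKM in distal libraries.

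Hgf (chromosome 5, 16553495 to 16620152, plus strand) stood at 13.6 and 17.1 FPKM in proximal and 17.5 and 14.8 FPKM in distal libraries, with overlapping regions. The log2 difference was -0.08 ± 0.36 (SE; 95% interval -0.99 to 0.83; adjusted p = 0.99991, limma). Transcripts that span the whole gene made up 9.94 and 17.1 FPKM in proximal and 13.5 and 14.8 FPKM in distal libraries. Short transcripts that end early held 3.61 FPKM in proximal 2 and 4.0 FPKM in distal 2 and were listed at 0 in proximal 3 and distal 3. Met, the HGF receptor, did not exceed 1.72 FPKM, its value in proximal 3.

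Among the 7 ligands Fgf7 had rank 1 in both proximal libraries, but rank 5 in distal 2 and rank 3 in distal 3. Fgf18 had rank 1 in distal 2, and Fgf2 in distal 3. By mean level Fgf7 was followed in proximal stroma by Fgf2 (17.0 ± 10.4 FPKM), Hgf (15.3 ± 2.53), Fgf18 (10.4 ± 7.79), Fgf10 (10.4 ± 6.46), Fgf1 (9.54 ± 2.54) and Fgf9 (0.234 ± 0.132; SD, n = 2 each). In distal stroma the order was Fgf2 (19.6 ± 3.89 FPKM), Hgf (16.2 ± 1.89), Fgf7, Fgf1 (11.1 ± 3.38), Fgf18 (11.1 ± 9.86), Fgf10 (6.85 ± 3.10) and Fgf9 (0.543 ± 0.115). Neighbours in these orders overlapped in their libraries, except for Fgf7 over Fgf2 in proximal stroma, Hgf over Fgf7 in distal stroma and the last gene before Fgf9 in both.

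**Figure D3:**
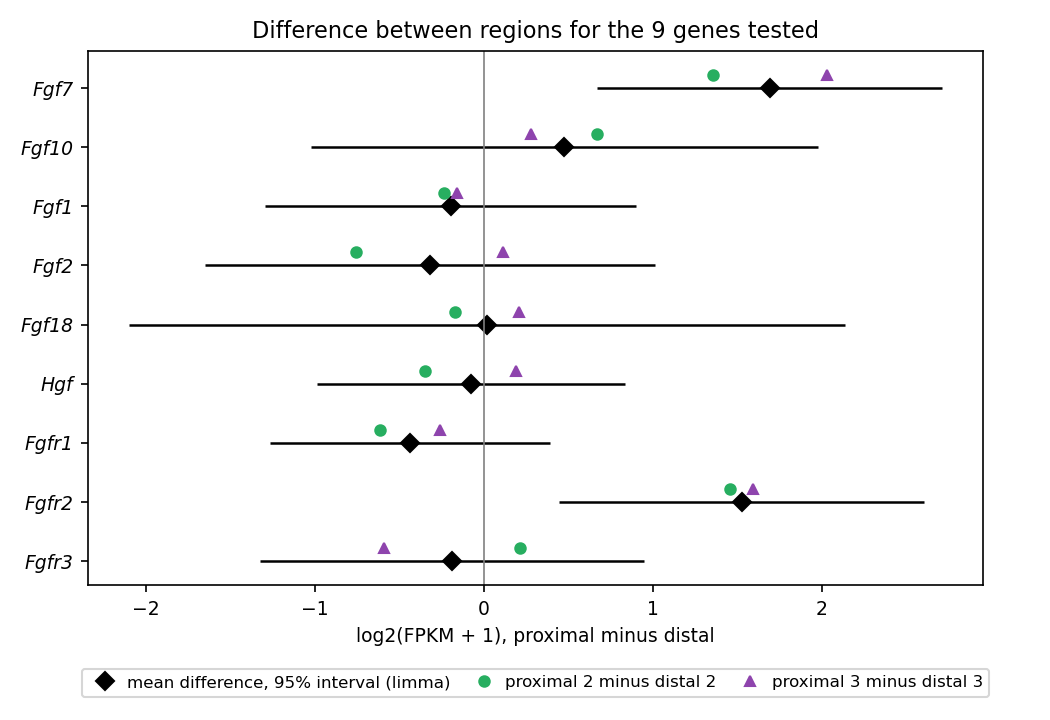
Difference between proximal and distal stroma on the log2(FPKM + 1) scale for the 9 genes tested, with diamonds for the mean, black lines for its 95% interval from limma, and circles and triangles for the values within the libraries numbered 2 and 3. The intervals of Fgf7 (0.67 to 2.72) and Fgfr2 (0.45 to 2.61) lie above 0 before adjustment over all genes, and those of the other 7 genes cross 0.

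The remaining genes of the pathway were read from lists, in none of which a gene passed over all genes. All other FGF ligands were low. Of 16, only Fgf13 and Fgf21 were tested. Fgf21, a metabolic hormone of the liver, stood at 1.52 and 4.48 FPKM in proximal and 0.741 and 1.63 FPKM in distal libraries, and Fgf13, an intracellular family member, at 1.49 and 0.690 FPKM in proximal and 1.88 and 1.0 FPKM in distal libraries. The co-receptors of hormone-like FGFs, Kl and Klb, did not exceed 0.215 FPKM. Of 9 other receptors, co-receptors and carriers 5 were tested, with a median log2 difference of 0.08. This median was 0.69 without proximal replicate 2, -0.05 without proximal replicate 3 and 0.41 without distal replicate 3. Fgfrl1, a receptor without a kinase domain, stood at 11.3 and 3.29 FPKM in proximal and 21.6 and 6.22 FPKM in distal libraries. Flrt2, a membrane protein that binds FGF receptors, stood at 17.8 and 36.2 FPKM in proximal and 14.4 and 23.7 FPKM in distal libraries.

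The heparan sulfate list holds core proteins of proteoglycans and enzymes that make, modify or degrade their sugar chains, which hold FGFs at the receptor. Its genes had mostly lower proximal values. Of 23 tested, 17 had negative log2 differences and 6 positive ones, against 39.6% negative among all genes. Both proximal libraries lay below both distal libraries for 7 of the 23, against 8.64% of all genes, and above them for 1, against 13.0%. The list median was -0.34, with 0 passing, and it was -0.63 without proximal replicate 2 and -0.16 without proximal replicate 3. Hs3st1, a sulfotransferase that adds the 3-O-sulfate of heparan sulfate, had 3.17 FPKM in proximal 2 and 4.82 FPKM in proximal 3. In distal 2 and distal 3 it stood at 14.3 and 16.3 FPKM. The groups were clearly apart, with a log2 difference of -1.72 ± 0.41 (SE; adjusted p = 0.900, limma). The glypican Gpc6 stood at 42.4 and 24.4 FPKM in proximal and 70.0 and 58.2 FPKM in distal libraries. The syndecan Sdc3 overlapped between regions, at 38.3 and 5.79 FPKM in proximal and 46.9 and 18.5 FPKM in distal libraries.

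The list of HGF activators and inhibitors holds genes that epithelium also expresses. Of 15 listed, 7 were tested, with a median log2 difference of 0.12. Spint1 and Spint2, epithelial membrane inhibitors of the proteases that activate HGF, were among them. Spint1 stood at 1.25 and 6.69 FPKM in proximal and 0.548 and 1.04 FPKM in distal libraries. Spint2 stood at 6.35 and 20.2 FPKM in proximal and 4.83 and 3.67 FPKM in distal libraries. Both were highest in proximal 3, the library with the most epithelial marker RNA, whose part in these values was not tested. Plau, the urokinase protease, stood at 0.933 and 4.68 FPKM in proximal and 4.13 and 12.9 FPKM in distal libraries. The list median was -0.45 without proximal replicate 3 and 0.93 without proximal replicate 2.

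Genes downstream of the receptors differed in both directions, with 0 passing. Of 18 tested signal transducers 8 had positive and 10 negative differences, against 39.6% negative among all genes, with a median of -0.07. The regions did not overlap for 3 of them, all with lower proximal values, against 8.64% of all genes. Mapk3 (ERK1) had a log2 difference of 0.59 ± 0.52 (SE), the phosphatase Ptpn11 (SHP2) -0.47 ± 0.36 and the kinase Braf -0.40 ± 0.40. Of 14 tested feedback and response genes 4 had positive and 10 negative differences, with a median of -0.27. The inhibitor Spry4 stood at 20.5 and 15.7 FPKM in proximal and 29.3 and 34.6 FPKM in distal libraries. Dusp5 stood at 21.02 and 29.4 FPKM in proximal and 32.3 and 54.8 FPKM in distal libraries, and Dusp4 at 5.69 and 8.27 FPKM in proximal and 3.36 and 4.22 FPKM in distal libraries. Both encode phosphatases of MAP kinases, and their differences had opposite signs. Spry1 (chosen after its values were seen) followed the library number, with 214 FPKM in proximal 2 and 16.2 FPKM in proximal 3, against 153 FPKM in distal 2 and 18.3 FPKM in distal 3. The median of the feedback list was 0.32 without proximal replicate 3 and 0.16 without distal replicate 2.

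**Figure D4:**
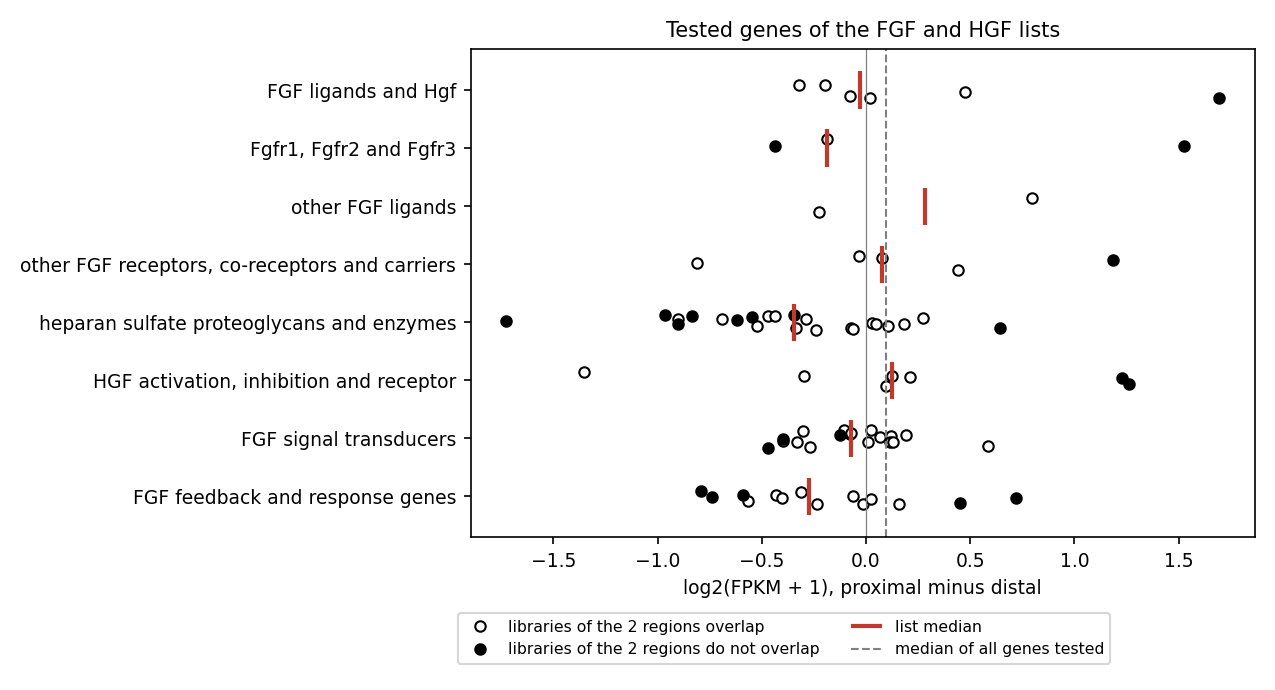
Difference between proximal and distal stroma on the log2(FPKM + 1) scale for the tested genes of each list, with filled circles where the libraries of the regions do not overlap, red bars for list medians and a dashed line for the median of all genes (0.09). Fgf7, Fgfr2 and Fgfr4 are the filled circles on the right of the top 4 lists, and Hs3st1 is the circle farthest to the left.

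The genes whose levels over the 4 libraries were most like those of Fgf7, by Euclidean distance of centred log2(FPKM + 1) values among 7428 genes of at least 5 FPKM on average, were Defb50 (distance 0.023), Manba (0.25), Sfrp4 (0.25), Hpgd (0.30) and Hey1 (0.31). Among those most like Fgfr1 were Clint1 (0.045), Patl1 (0.069), Mpzl1 (0.079) and Ndfip2 (0.083). With 4 libraries such likeness is a description only.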

How the data were processed

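RNA of sorted stromal cells (2 proximal and 2 distal libraries) was made into cDNA with the SMART-Seq v4 kit and sequenced on an Illumina HiSeq, per the labels' protocols. bcl2fastq 1.8.3, TopHat2 0.6 and Cufflinks 0.0.6 with mm10 are named in the submitters' processing notes. The last 2 numbers may belong to a workflow wrapper, and no source used here says which tool did what. Each deposited table holds transcript FPKM, its bounds and a coverage signal, per the file headers. The coverage signal per FPKM had medians of 5.23 to 6.34 over the libraries. Depth as total fragments is not given, so no count model was used. PCR copies are not independent molecules, so the bounds cover estimation error within a library only.

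Gene names came from the position of each transcript in GENCODE M21 (same assembly), from span overlap and length, then exon ends within 100 bases, then overlap with a single gene. This named 55637 of 63241 transcripts (87.98%). All 47 transcripts of the 10 genes fell inside the matching RefSeq gene (tolerance 1000 bases) and had the status OK. FPKM was summed per gene, 7 genes with a failed or capped estimate were left out, and genes with at least 1 FPKM in at least 2 libraries were tested. The test was limma 3.58.1 (R 4.3.3) on log2(FPKM + 1), with region as the only term, a mean trend, two-sided, adjusted by Benjamini-Hochberg for 11271 genes, threshold 0.05. It was run on simulated data with independent libraries and no shared effect of library number, unlike the correlated deviations seen here. The exon sequence was read from GENCODE transcripts.

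The 10 genes and the lists were chosen with earlier results of these data known. Named are all 10 genes, the 3 genes with the largest difference in each list, marker genes that lead their list or reach 5 FPKM, and the 5 genes nearest to Fgf7 and to Fgfr1, of which 1 is not reported here. Quantile normalization moved the all-gene median log2 difference by -0.13. Alternatives were other pseudocounts, filters, scalings, naming rules and variance models, a term for library number and leaving out each library. Klkb1 and Spry3 of the lists matched no named transcript.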

Additional observations from a re-analysis of the deposited data

How the results depend on the processing

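Fgf7 and Fgfr2 had higher proximal values under all 14 and 15 alternatives run for them. Their log2 differences ranged from 1.43 to 1.77 and from 1.09 to 1.69, and with a library left out from 1.31 to 2.08 and from 1.25 to 1.802. Fgfr1 had lower proximal values under all 14, from -0.68 to -0.20 with a library left out. The regions did not overlap for Fgf7, Fgfr2 and Fgfr1, so leaving out a library could not reverse their signs. Changing only the filter, the variance model or the term for library number left their estimates as they were. The counts of alternatives therefore include fits that could not have differed in direction. With a library left out, Fgf1 ranged from -0.48 to 0.092, Fgf2 from -0.95 to 0.31, Fgf10 from -0.13 to 1.09, Fgf18 from -0.93 to 0.97, Hgf from -0.24 to 0.081 and Fgfr3 from -0.54 to 0.16, so each took both signs. Fgf18 was also reversed with a pseudocount of 5 FPKM (-0.0091), quantile normalization (-0.085) and median ratio scaling (-0.060). With the most abundant transcript in place of the sum, the difference was -0.82 for Fgfr3 and -0.25 for Hgf, against -0.19 and -0.08.

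No label says that a library number marks an animal or day, so the numbers do not establish a pairing. Deviations of same-numbered libraries correlated over genes (r = 0.815). With the library number as a replicate block, limma called 314 genes higher and 151 lower in proximal stroma (2.79% and 1.34%), where the test without it called 0 and 0. The cause was not tested. Among the 10 genes 2 passed with the block, Fgf7 (adjusted p = 0.00973) and Fgfr2 (adjusted p = 0.00818). In the pathway lists Fgfr4, Gpc6, Hs3st1 and Plau passed with it. So did the epithelial markers Elf3 (adjusted p = 0.00818), Cdh1 (0.0107) and Krt19 (0.0281), all higher in proximal stroma, and the smooth muscle and pericyte markers Abcc9 (higher), Actg2 and Cspg4 (both lower). With a library left out, the calls ranged from 0 to 36 higher and 0 to 5 lower genes. They were 36 and 4 without distal replicate 2, 21 and 5 without distal replicate 3, and 0 of the 10 genes passed in any such fit. Fgf2 and Fgf18 gave no value when names rested on span and length alone. With 2 libraries per region, the intervals allow differences of 2-fold or more for most of these genes, and absolute depth is unknown.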
